A study of Mus musculus with 6 samples.

Results

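The genes of insulin-like growth factor (IGF) supply and reception were followed over the genotypes of Ecrg4, which encodes a secreted peptide precursor, in cultured mouse neural stem cells. The set held 9 genes, chosen by symbol: the ligand gene Igf1, the receptor genes Igf1r and Igf2r, and the binding protein genes Igfbp2, Igfbp3, Igfbp4, Igfbp5, Igfbp6 and Igfbp7. Each had 1 probe in the deposited table, so 9 of 23466 probes were described, and all 9 were measured on every array and tested among 20434 probes. Cells came from C57BL6 brain at postnatal day 0 and were kept untreated in DMEM/F12 medium that held heparin, EGF and bFGF. The groups were labelled Ecrg4 wt, Ecrg4 hetero and Ecrg4 homo, with 2 one-colour arrays each and numbered 1 and 2. The sources used here do not state the nature of the Ecrg4 allele, the number of animals or whether the arrays of a group came from separate cultures. All p-values therefore reflect spread among arrays that may be only technical.

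IGF ligands signal through IGF1R, a receptor tyrosine kinase that feeds the PI3K, AKT and mTOR route and promotes survival and growth of neural progenitors. IGF2R has no kinase: it carries IGF-II and mannose 6-phosphate-tagged enzymes to the lysosome. The binding proteins are secreted carriers that hold IGFs with high affinity away from the receptor or deliver them to it, and proteases release the ligand by cutting them. IGFBP7 is the exception, with low affinity for IGFs. In bulk cultures, fewer cells that make a transcript and less transcript per cell cannot be told apart.

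The labels were first set against the targeted gene. The Ecrg4 probe read 112.9 and 154.9 on the wild-type arrays, 345.5 and 373.9 on the heterozygous pair and 1.4 and 1.3 on the homozygous pair. The homozygous label thus matched the probe, while the heterozygous arrays read above the wild type, and directions below refer to the arrays as labelled. Of 9 measured neural stem cell markers 8, among them Nes, Vim and Fabp7, exceeded background on all 6 arrays, and Prom1 did on none. Background here means the 95th percentile of 663 olfactory receptor probes, which lay between 50.5 and 57.6 per array.

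Over the genotypes, the binding protein genes Igfbp4 and Igfbp3 passed the test. The binding protein genes Igfbp2, Igfbp5, Igfbp6 and Igfbp7, the receptor genes and Igf1 did not. By a moderated F test across the 3 genotypes 2 of 9 members passed (limma, adjusted p = 0.00821 for Igfbp4 and 0.0348 for Igfbp3), beside 2.26% of all probes. Between homozygous and wild type 1 member was called, Igfbp4, which was higher, beside 0.92% of all probes called in either direction and 0.431% called higher; 0 members were called lower, beside 0.489%. Between heterozygous and wild type Igfbp4 was again the 1 member called, beside 0.749% and 0.411%, with 0 called lower, beside 0.338%. Those comparisons share the wild-type arrays. Between homozygous and heterozygous 1 member was called, Igfbp3, which was higher, beside 2.69% and 1.26%, with 0 called lower, beside 1.43%. At an unadjusted limma p under 0.05 the counts were 4, 2 and 6 of 9 members, beside 19%, 13.5% and 18.2% of all probes. The genotypes did not overlap for 7, 5 and 9 of 9 members, beside 50.5%, 45.5% and 54.6% of all probes. The median log2 fold change of the members was -0.07, 0.04 and -0.34, against 0.02, -0.01 and 0.04 over all probes, and the median size without sign was 0.30, 0.26 and 0.50, against 0.25, 0.22 and 0.23.

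**Figure D1:**
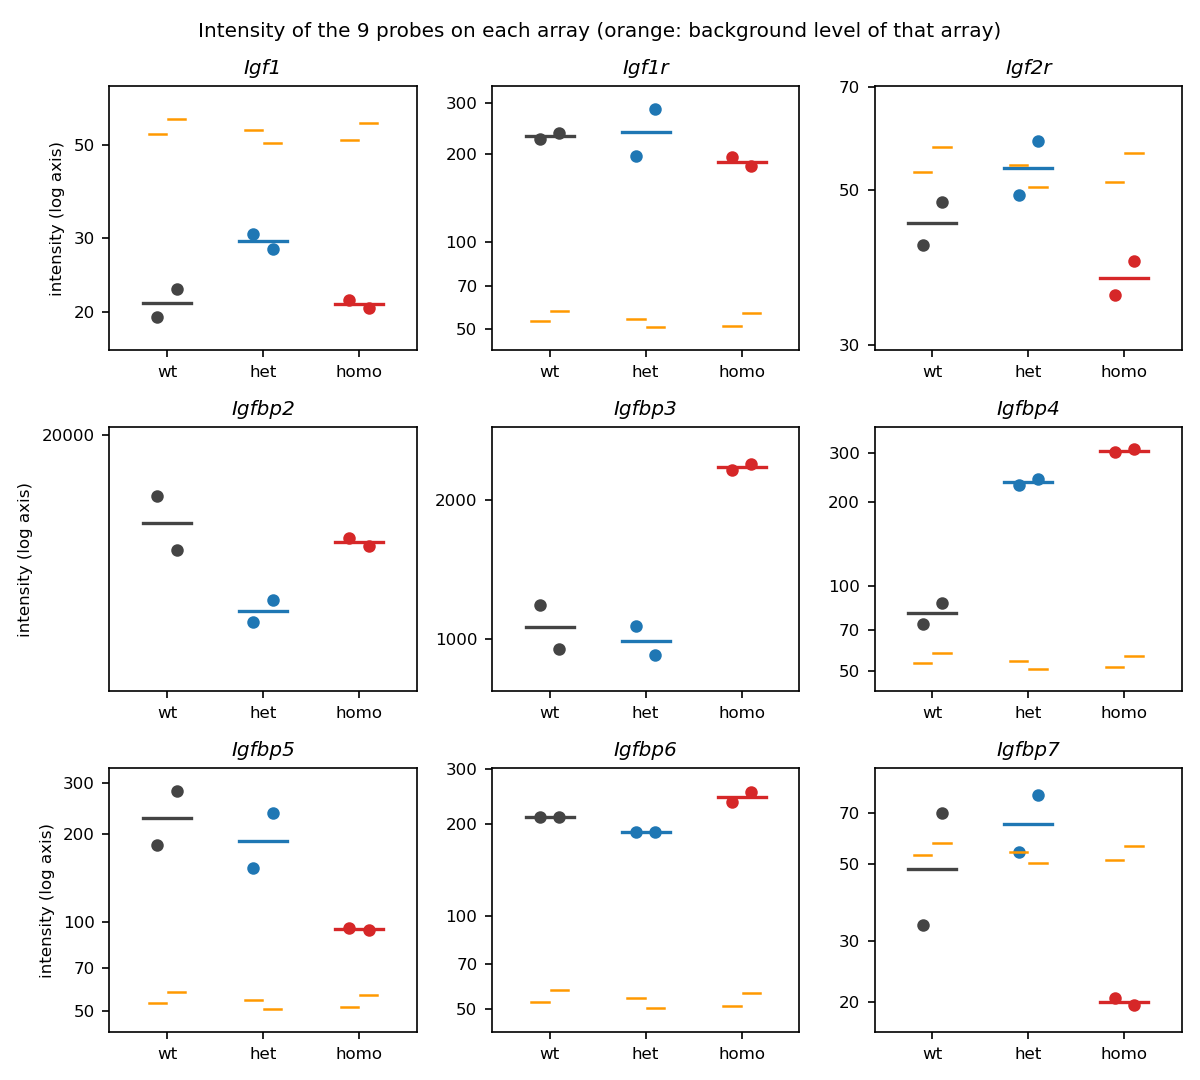
Intensity of the 9 probes on each array, on log axes that differ between panels; points are arrays, bars are geometric means of the 2 arrays of a genotype (wt, wild type; het, heterozygous; homo, homozygous), and orange marks are each array's background level, drawn where it falls inside the panel. Igfbp4 is low in the wild-type arrays alone (73.4 and 87.3), Igfbp3 is high in the homozygous arrays alone (2318 and 2393), and Igf1 lies under background on all 6 arrays.

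Igfbp4 encodes a carrier that mostly inhibits IGF action and is cut by the protease pappalysin-1. Its probe read 73.4 and 87.3 on the wild-type arrays, 231.7 and 242.8 on the heterozygous pair and 303.0 and 310.6 on the homozygous pair. The 3 genotypes did not overlap, all arrays lay above background, and the wild-type arrays were the lowest. Igfbp4 was 3.83-fold higher in homozygous than in wild type (log2 fold change 1.94 ± 0.16, SE, n = 2 arrays each; 95% interval of the fold 2.95 to 4.98; limma adjusted p = 0.00905). Heterozygous over wild type was 2.96-fold (1.57 ± 0.16, interval 2.28 to 3.85, limma adjusted p = 0.0156). The homozygous arrays were 1.29-fold above the heterozygous ones, a difference that did not pass (interval 0.996 to 1.68, limma adjusted p = 0.284), so this step in the order is not settled. The direction of Igfbp4 against wild type held in all 17 alternatives. The homozygous call ended without homozygous array 1 or 2. Almost all calls among all probes ended there too, so this loss is not particular to Igfbp4. The heterozygous call ended without wild-type array 1, heterozygous array 1 or 2, or either homozygous array. Most calls among all probes ended in those fits too.

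Igfbp3 encodes the main IGF carrier of blood serum, where it binds IGF together with the acid-labile subunit encoded by Igfals. Its probe read 1180 and 951.2 on the wild-type arrays, 1063 and 922.0 on the heterozygous pair and 2318 and 2393 on the homozygous pair. Both homozygous arrays stood above the other 4, while wild-type and heterozygous arrays overlapped. Igfbp3 was 2.38-fold higher in homozygous than in heterozygous (1.25 ± 0.17, interval 1.78 to 3.18, limma adjusted p = 0.0248). Against wild type the homozygous arrays gave 2.22-fold (1.15 ± 0.17, interval 1.66 to 2.97), which did not pass (limma adjusted p = 0.0505). It passed in 6 of 17 alternatives, among them log2(intensity + 50), quantile scaling and cyclic loess (0.0270, 0.0446 and 0.0423). The 6 include a floor at the background level, which leaves many probes without spread, so that pass carries no weight. Heterozygous over wild type was 0.934-fold (interval 0.698 to 1.25, limma adjusted p = 0.812). The call between homozygous and heterozygous ended without heterozygous array 1 or 2 and without homozygous array 1 or 2. Most calls among all probes ended in those fits too, so this loss is not particular to Igfbp3.

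Igfbp5 and Igfbp7 had their lowest values in the homozygous arrays, and no comparison of either passed. Igfbp5, whose product also binds matrix and heparin, read 184.0 and 280.9 on the wild-type arrays, 153.5 and 236.0 on the heterozygous pair and 95.5 and 93.9 on the homozygous pair. The homozygous arrays lay under the other 4 and above background, but the wild-type arrays differed 1.53-fold and the heterozygous arrays 1.54-fold between themselves. Homozygous was 2.40-fold under wild type (-1.26 ± 0.28, interval of the decrease 1.50 to 3.85, limma adjusted p = 0.106) and 2.01-fold under heterozygous (-1.01 ± 0.28, interval 1.25 to 3.23, limma adjusted p = 0.137). Both comparisons passed with an intensity trend and robust prior (limma adjusted p = 0.0183 and 0.0371) and with only probes above background on at least 2 arrays (0.0279 and 0.0479).

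Igfbp7, a secreted protein of vessel basement membranes, read 33.4 and 70.3 on the wild-type arrays, 54.0 and 78.9 on the heterozygous pair and 20.5 and 19.6 on the homozygous pair. Only wild-type array 2 and heterozygous array 2 exceeded background, and the wild-type arrays stood 2.10-fold apart. The measured log2 fold change of homozygous against heterozygous was -1.70 ± 0.37 (limma adjusted p = 0.0758) and against wild type -1.27 ± 0.37 (0.159). With the homozygous arrays set at their background level, the heterozygous geometric mean stood 1.21-fold above them. That bound describes the measured means of a difference without a call. Heterozygous array 1 lay just under its own level of 54.2. No bound above 1 was measured against wild type. The difference from heterozygous passed in 7 of 17 alternatives. With only the 4 arrays compared limma gave an adjusted p of 0.0334, and leaving out wild-type array 1 or 2 is the same fit. It also passed with median centring (0.0465), array weights (0.0234) and the trend and robust prior (0.0227). The last was the filter to probes above background on at least 2 arrays (0.0218). Igfbp7 entered that filter only through wild-type array 2 and heterozygous array 2, where it was high, so the filtered call adds no support.

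**Figure D2:**
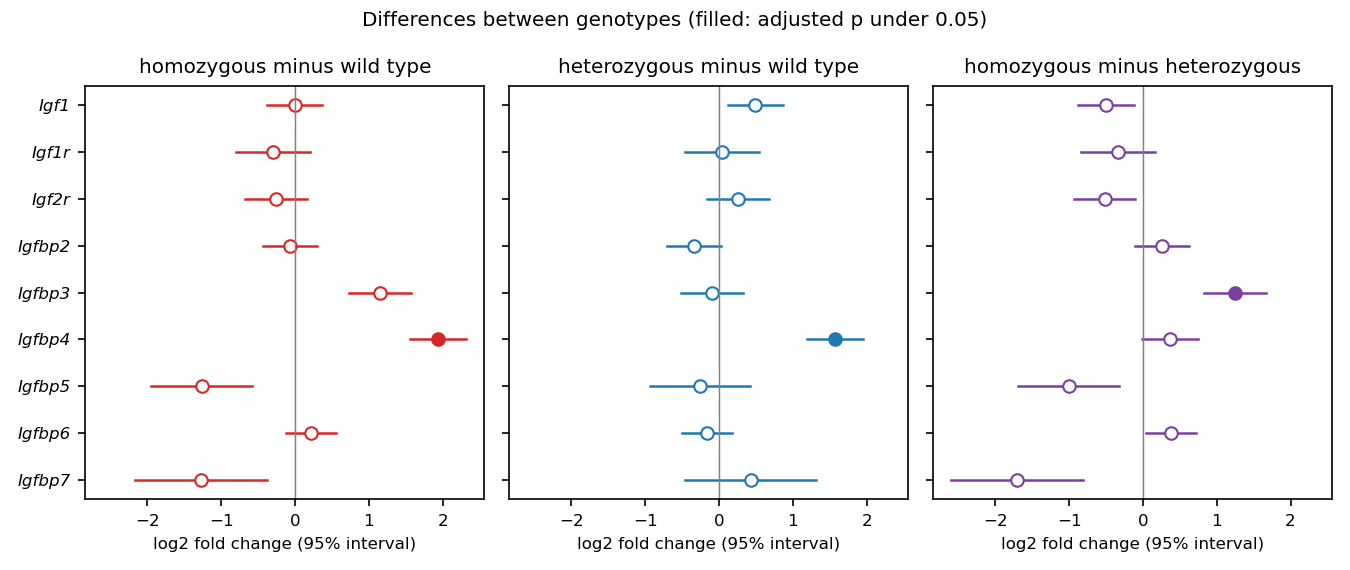
Log2 fold change of each of the 9 genes in the 3 comparisons, with 95% intervals of the limma fit; filled points have an adjusted p under 0.05 over 20434 probes. Filled points are Igfbp4 against wild type (1.94 and 1.57) and Igfbp3 in homozygous minus heterozygous (1.25). Igf1 lay under background on all arrays and Igf2r on all but heterozygous array 2. Igfbp7 lay under it on all but wild-type array 2 and heterozygous array 2. The differences of these 3 genes rest wholly or largely on values under background.

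Vascular and mural cells are among the known makers of Igfbp5 and Igfbp7, so their markers are given beside these genes, with those of astrocytes. Of 6 measured pericyte and smooth muscle markers, 1 fell in each of the 3 comparisons, Acta2. Beside it, 0.489% of all probes were called lower in homozygous against wild type, 0.338% in heterozygous against wild type and 1.43% in homozygous against heterozygous. Acta2 alone of the 6 exceeded background on all 6 arrays. The summed intensity of the 6 was between 1016 and 1368 in the wild-type arrays, between 362.7 and 365.6 in the heterozygous and between 162.6 and 198.1 in the homozygous. Without Acta2 the sums were 120.9 to 138.5, 78.1 to 88.1 and 74.6 to 79.6. Tagln, a smooth muscle gene above background on 1 array, read 71.3 and 50.1, then 31.4 and 19.3, then 14.1 and 18.9 in the order wild type, heterozygous, homozygous (limma adjusted p = 0.0578 for homozygous against wild type). Rgs5 read 15.1 and 12.7, then 7.0 and 6.5, then 4.2 and 9.3, and the pericyte receptor gene Pdgfrb read between 42.8 and 49.7, both under background throughout. Kcnj8 (1.6 to 3.8) and Myh11 (3.7 to 6.8) lay under background too. For Pdgfrb, Kcnj8 and Myh11 the homozygous and wild-type arrays overlapped, so the sum without Acta2 follows mostly Tagln and Rgs5. Of 3 endothelial markers measured on every array none passed in the 3 comparisons, beside 0.92%, 0.749% and 2.69% of all probes. In so short a list nothing is read from it. The endothelial sum was 143.3 to 203.9, 67.0 to 82.7 and 87.2 to 127.2 in the same order of genotypes. Most of that sum was Flt1, a VEGF receptor gene above background on 5 arrays, which read 113.7 and 170.9, then 57.6 and 50.8, then 104.1 and 54.4. Kdr read 25.3 and 25.9, then 18.9 and 13.3, then 15.9 and 23.9, under background. Emcn, also under background, read 4.3 and 7.1, then 6.2 and 2.9, then 7.2 and 8.9, highest in homozygous. The other endothelial genes Pecam1, Cdh5, Cldn5 and Tek were blank or at most 4.3 on every array. The 7 meningeal fibroblast markers all lay under background, with sums of 116.5 to 151.5, 114.5 to 136.4 and 91.2 to 99.2. Of them Foxc1 alone was called, lower in homozygous than in heterozygous (limma adjusted p = 0.0438), beside 1.43% of all probes called lower. The 5 measured astrocyte markers summed to 191.7 to 276.5 in wild type, 430.7 to 484.7 in heterozygous and 181.1 to 247.4 in homozygous. Most of that sum was S100b, alone of the 5 above background on all 6 arrays. S100b read 147.7 and 220.9, then 356.0 and 337.5, then 196.9 and 139.4, without a call (limma adjusted p of at least 0.100). Of the 5, Aqp4 alone was called, lower in homozygous than in heterozygous (limma adjusted p = 0.0333), beside 1.43% of all probes called lower. Aqp4 exceeded background on 1 array only, and Gfap, Aldh1l1 and Slc1a2 lay under background on all 6. Of 5 measured microglia markers, P2ry12 was called higher in homozygous, beside 0.431% and 1.26% of all probes called higher. The limma adjusted p was 0.0221 against wild type and 0.0218 against heterozygous. Cx3cr1 was called lower in heterozygous than in wild type (limma adjusted p = 0.0374), beside 0.338%. Both lay under background on all 6 arrays. The short neuron, oligodendrocyte lineage and choroid plexus lists held no call, so nothing is read from them. The part of such cells in the values of Igfbp5, Igfbp7 and Igf1 was not tested.

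Igfbp2, an abundant binding protein gene of the embryonic brain whose product carries an integrin-binding motif, read 17003 and 14769 on the wild-type arrays, 12218 and 12964 on the heterozygous pair and 15254 and 14940 on the homozygous pair. The heterozygous arrays were the lowest, at 0.794-fold of wild type (interval 0.616 to 1.02, limma adjusted p = 0.390), and wild-type and homozygous arrays overlapped. The sign of its difference between homozygous and wild type turned with quantile or cyclic loess scaling. Igfbp6, whose product prefers IGF-II, read 209.2 and 209.8, then 187.2 and 188.3, then 235.7 and 252.2 in the same order of genotypes. The groups did not overlap, but homozygous over heterozygous was only 1.30-fold (interval 1.03 to 1.64, limma adjusted p = 0.233), which passed with log2(intensity + 50) alone (0.0333).

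Igf1r read 226.6 and 237.6 on the wild-type arrays, 197.8 and 287.2 on the heterozygous pair and 195.5 and 181.9 on the homozygous pair. The homozygous arrays were the lowest and the heterozygous arrays spanned the wild-type ones. Homozygous over wild type was 0.813-fold (interval 0.573 to 1.15, limma adjusted p = 0.471), and homozygous over heterozygous was 0.791-fold (interval 0.558 to 1.12, limma adjusted p = 0.451). Igf2r read 41.7 and 48.1, then 49.1 and 58.6, then 35.4 and 39.6, and exceeded background on 1 array, heterozygous array 2. Its limma adjusted p values were 0.453 for homozygous against wild type, 0.516 for heterozygous against wild type and 0.190 for homozygous against heterozygous. No bound of its fold above 1 was measured. Igf1 read 19.4 and 22.6, then 30.7 and 28.3, then 21.3 and 20.4, under background on every array, so no fold is given. The heterozygous arrays were the highest, without a call (limma adjusted p = 0.286 against wild type and 0.167 against homozygous).

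The sequence before the start of the 4 binding protein genes with the largest differences is shown as description. Of these genes Igfbp5 and Igfbp7 passed no comparison, and whether the sequence bears on any level was not tested. Windows came from RefSeq on build GRCm38.p6, in which all 9 members were found, Igfbp2 with 2 starts. The 250 bases before the start are printed 5′ to 3′ on the strand of the gene, with capitals for TATAAA (the TATA box) and GGGCGG (the GC box) on either strand.
Igfbp4, chr11:99040994-99041243, plus strand: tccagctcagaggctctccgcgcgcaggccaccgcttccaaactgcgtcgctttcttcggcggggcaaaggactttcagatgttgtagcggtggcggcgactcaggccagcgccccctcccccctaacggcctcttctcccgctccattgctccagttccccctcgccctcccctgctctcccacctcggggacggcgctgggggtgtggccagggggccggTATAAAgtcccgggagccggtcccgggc
Igfbp3, chr11:7213924-7214173, minus strand: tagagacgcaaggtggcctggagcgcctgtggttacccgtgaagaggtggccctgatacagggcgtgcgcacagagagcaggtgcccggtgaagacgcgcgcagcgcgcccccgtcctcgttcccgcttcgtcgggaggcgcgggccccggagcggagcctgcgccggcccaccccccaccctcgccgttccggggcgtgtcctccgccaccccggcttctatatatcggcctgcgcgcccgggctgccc
Igfbp5, chr1:72874866-72875115, minus strand: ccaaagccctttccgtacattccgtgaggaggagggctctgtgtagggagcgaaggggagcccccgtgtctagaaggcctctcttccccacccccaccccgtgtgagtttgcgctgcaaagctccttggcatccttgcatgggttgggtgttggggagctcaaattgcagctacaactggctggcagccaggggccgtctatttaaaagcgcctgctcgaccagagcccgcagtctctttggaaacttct
Igfbp7, chr5:77408046-77408295, minus strand: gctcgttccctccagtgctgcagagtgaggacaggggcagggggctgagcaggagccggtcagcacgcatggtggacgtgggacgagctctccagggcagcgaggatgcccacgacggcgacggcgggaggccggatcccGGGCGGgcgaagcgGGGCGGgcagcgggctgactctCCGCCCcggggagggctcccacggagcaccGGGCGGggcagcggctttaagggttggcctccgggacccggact
The Igfbp4 window held TATAAA once, starting at position -28 from the start site, a motif found in 12.4% of 17491 protein-coding windows of the same length. The Igfbp7 window held GGGCGG 4 times, at -110, -96, -74 and -44, where 42.7% of all windows held it at least once. Igfbp3 and Igfbp5 held neither exact string. Variants of the TATA box or GC box were not searched, so no lack of a TATA box is shown. ACGTG, the core of hypoxia response elements, was found at -175 in Igfbp7 and not in the other 3, against 17.6% of all windows. The E-box CANNTG, of which some forms contain ACGTG, was found once each in Igfbp4 (-174), Igfbp3 (-172) and Igfbp5 (-77), against 62.7% of all windows, and TGTTTAC, a FOXO core, was in none of the 4, against 2.58%. The GC content of the windows was 69.2% for Igfbp4, 73.2% for Igfbp3, 58.8% for Igfbp5 and 74.0% for Igfbp7. These letters describe the windows and show no binding.

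Of 60 other genes of the pathway 49 were tested, 19 of them above background on all 6 arrays and 24 on none. Between homozygous and wild type 0 rose and 1 fell, beside 0.92% of all probes called, with 7 at an unadjusted limma p under 0.05, beside 19%, and a median log2 fold change of -0.11. Between heterozygous and wild type 0 rose and 1 fell, beside 0.749% (6 unadjusted, beside 13.5%, median -0.08), and between homozygous and heterozygous limma called 0, beside 2.69% (5 unadjusted, beside 18.2%, median 0.05). At these shares of all probes, so few calls among 49 genes are no result about the pathway. The gene that fell in homozygous was Stc1, for stanniocalcin-1, a secreted inhibitor of pappalysins. The pappalysin gene Pappa was blank on all but wild-type array 1 (1.5) and homozygous array 2 (1.2), so it was not tested. Pappa2 had no named probe. Stc1 read 107.5 and 128.1 on the wild-type arrays, 82.5 and 87.0 on the heterozygous pair and 52.2 and 56.1 on the homozygous pair (homozygous minus wild type -1.12 ± 0.16, limma adjusted p = 0.0451). Its groups did not overlap, but the call ended on leaving out any array. Without either homozygous array almost all calls among all probes ended too. The gene that fell in heterozygous was Crim1, for a membrane protein with an IGFBP-like domain, which read 45.5 and 49.0 in wild type, 19.8 and 17.4 in heterozygous and 24.6 and 24.9 in homozygous (limma adjusted p = 0.0220). All its values lay under background, so no fold is given. Of the fits that left out 1 array only that without wild-type array 2 kept the call. In the other such fits most calls among all probes ended too.

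The genes named in what follows by role did not pass any comparison and were picked after their values were seen. The other ligand genes Igf2 and Ins2 lay under background on all 6 arrays, as did the insulin receptor gene Insr and its relative Insrr. Igfbp1 and Igfals lay under background too, reading 12.4 to 16.5 and 12.4 to 17.2. Among 8 measured genes of IGFBP-related proteins, the secreted protease gene Htra1 and Kazald1 were above background on all arrays, without a call in any comparison (limma adjusted p of at least 0.331 for Htra1). Of the adaptor genes, Irs2 read between 683.2 and 1091 and Gab1 between 626.0 and 791.2. None of 7 PI3K and AKT genes, 7 mTOR genes, 4 FOXO and GSK3 genes, 3 feedback genes, 3 genes for binders of Igf2 mRNA and 3 mannose 6-phosphate genes was called by limma in any of the 3 comparisons, beside 0.92%, 0.749% and 2.69% of all probes, so lists this short would mostly hold no call and nothing is read from it. The feedback inhibitor gene Socs2 read 163.9 and 130.5, then 209.2 and 183.8, then 196.4 and 208.8, with the wild-type arrays lowest (limma adjusted p = 0.229 and 0.372 against wild type).

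**Figure D3:**
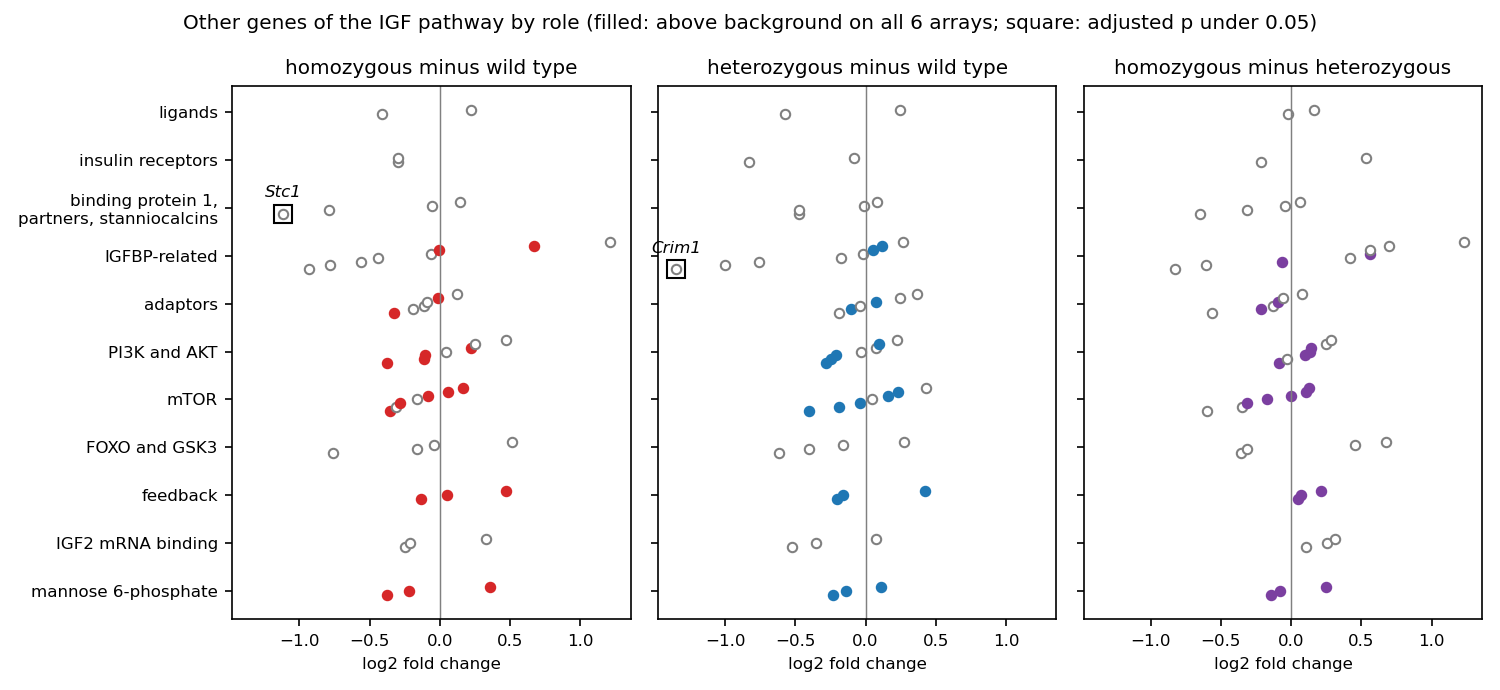
Log2 fold change of 49 other genes of the IGF pathway by role in the 3 comparisons; filled points were above background on all 6 arrays, open grey points were not, and squares mark an adjusted p under 0.05. The squares are Stc1 in homozygous minus wild type (-1.12) and Crim1 in heterozygous minus wild type, the latter under background on all arrays.

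The genes most like Igfbp4 and Igfbp3 over the 6 arrays were taken by Pearson correlation of log2 intensity among 6885 named probes with a mean above background. For Igfbp4 they were the amino acid transporter gene Slc7a6 (r = 0.994), the splicing regulator gene Srsf10 (0.990) and Ebag9 (0.990). Slc7a6 read 66.9 and 72.5 in wild type, 87.9 and 87.5 in heterozygous and 92.3 and 94.2 in homozygous, the same order as Igfbp4 over a smaller range. For Igfbp3 they were Lsg1, for a GTPase of ribosome assembly (r = 0.988), the neurexin ligand gene Nxph1 (0.988) and the DNA repair gene Tdg (0.987). Tdg read 199.4 and 195.9 in wild type, 183.9 and 168.8 in heterozygous and 378.7 and 391.3 in homozygous. The points are 3 pairs of arrays of 1 genotype each, so these values of r mostly order genotype means.

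**Figure D4:**
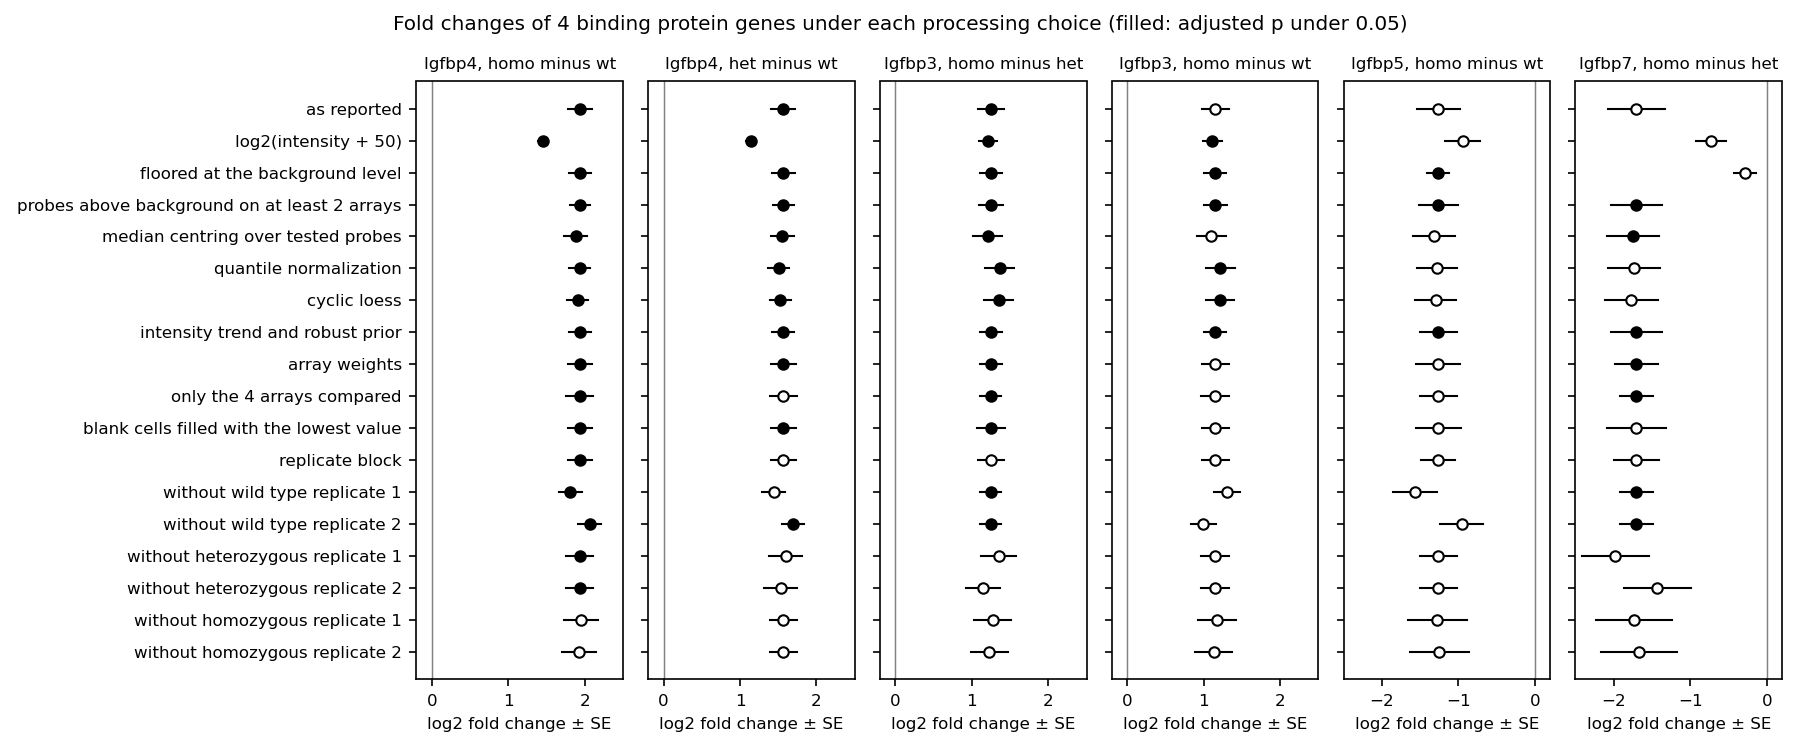
Log2 fold change ± SE of Igfbp4, Igfbp3, Igfbp5 and Igfbp7 as reported and under 17 processing alternatives; filled points have an adjusted p under 0.05. The points of each panel stay on 1 side of 0, Igfbp4 from 1.45 to 2.06 in homozygous minus wild type, while the fill changes between alternatives, most often for Igfbp4 and Igfbp7 in comparisons with heterozygous.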

How the data were processed

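RNA for 6 arrays was amplified to amino allyl aRNA and dye-coupled for Toray arrays, per the labels' protocols. The deposited table held linear 1-colour intensity, with a median of 30 on every array. The sources used here do not state the scanner, the background correction or why cells are blank. Intensities were log2-transformed without a pseudocount, and the 20434 probes without blank cells were fitted with limma 3.58.1 in R 4.3.3, with 1 coefficient per genotype and no covariate (residual df 3, prior df 3.27). Tests were two-sided, with Benjamini-Hochberg adjustment over these probes and a threshold of 0.05. The number of arrays limits the precision. Gene symbols came from the platform annotation (16625 probes named, 6841 unnamed here) and were updated through RefSeq. A bound of a fold sets the lower genotype at the background level. Named genes were the members, called genes of a pathway list, and for each member past the F test the 3 most alike. Markers were named from fixed lists; uncalled pathway genes, marker genes and the neighbour given by value were picked after their values were seen. Members, lists and alternatives were chosen with earlier results of these data known. The fit was tested on simulated data.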

Additional observations from a re-analysis of the deposited data

How the results depend on the processing

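Each count and fold change was recomputed under 17 alternatives; those leaving out an array assume that the lone array of its genotype varies like the others. Of the member and pathway values recomputed, 419 kept direction and side of the threshold, most without a call to lose. Another 20 gained one and 15 changed sign. The 32 calls lost were of Stc1 (10 of 17), Crim1 (8 of 16), Igfbp3 (5 of 17) and Igfbp4 (7 of 17 heterozygous, 2 of 17 homozygous). The cause was not tested. The 1 member called between homozygous and wild type became 2 with log2(intensity + 50), quantile scaling and cyclic loess, and 3 with the background floor, the filter at 2 arrays and the trend with robust prior; without 1 array it ranged from 0 to 1. The 1 called between heterozygous and wild type became 0 with only the 4 arrays compared, and ranged from 0 to 1 without 1 array. The 1 called between homozygous and heterozygous became 2 with log2(intensity + 50), the floor, median centring, array weights and only the 4 arrays, and 3 with the filter and the trend; it ranged from 0 to 2 without 1 array. Calls among all probes moved too: between homozygous and wild type 188 became 787 with log2(intensity + 50), 328 with quantile scaling, 313 with cyclic loess, 2090 with the floor, 849 of 9538 with the filter and 1094 with the trend, and between homozygous and heterozygous 549 became 982, 718, 736, 1889, 974 and 1357 in that order, 783 with median centring, 1261 with array weights and 680 with only the 4 arrays. The 2 past the F test became 4 with the filter and the trend, 3 with the floor and array weights, 1 with blank cells filled, and ranged from 0 to 3 without 1 array. No F test was run on only the 4 arrays. Among all probes the 462 past the F test became 1023 of 9538 with the filter, 1582 with the trend and 3029 with the floor. Array weights gave 791 and filled blank cells 266 of 23466. Between heterozygous and wild type the 153 called among all probes became 40 with only the 4 arrays. The floor leaves many probes without spread, so its p-values are not given and its counts carry no weight. The filtered Igfbp7 calls carry none either, as given above.

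With the replicate block 1, 0 and 0 members were called in the 3 comparisons and 1 by the F test, and 47, 51 and 244 of all probes, against 188, 153 and 549. Arrays of the same number share only that number: their deviations from the group means correlated at 0.016, 0.0100 and -0.076. Over all alternatives the calls among all probes ranged from 1 to 2090, 18 to 1221 and 6 to 1889.

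Signs that turned were all of differences without a call. In homozygous minus wild type Igfbp2 gave 0.20 with quantile scaling and 0.14 with cyclic loess. Without 1 array Igfbp2 ranged from -0.17 to 0.032 (wild-type array 1) and Igf1 from -0.12 to 0.10 (wild-type array 2), with 0.025 without homozygous array 2. In heterozygous minus wild type Igf1r gave -0.0016 with quantile scaling, -0.0033 with cyclic loess and, without 1 array, -0.23 (heterozygous array 2) to 0.31. Without 1 array Igfbp3 ranged from -0.25 to 0.058 (wild-type array 1), with 0.0050 without heterozygous array 2. Igfbp5 ranged from -0.57 to 0.054 (heterozygous array 1), with 0.049 without wild-type array 2, and Igfbp7 from -0.11 (wild-type array 1) to 0.97. With the floor Igf1 gave -0.079 in heterozygous minus wild type and 0.041 in homozygous minus heterozygous. All its values lay under background, so these, counted among the changes of sign, are differences of the background levels.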

Other observations

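Several IGF binding protein genes lie beside each other or beside tensin genes on the chromosomes, so the protein-coding neighbours of the 9 members were read from the RefSeq gene order. Of 18 neighbour positions, 10 genes outside the set had a tested probe, and limma called 0 of them in each of the 3 comparisons, beside 0.92%, 0.749% and 2.69% of all probes, from which nothing is read about the neighbours. Igfbp2 and Igfbp5 are neighbours on chromosome 1: Igfbp5 was lowest in the homozygous arrays (95.5 and 93.9), and Igfbp2 was lowest in the heterozygous arrays (12218 and 12964). Igfbp3 lies beside Igfbp1 on chromosome 11, and Igfbp1 read 13.4 and 14.3 in the homozygous arrays, against 14.3 and 14.5 in wild type, under background throughout. Igfbp4 lies on the same chromosome beside Top2a, a topoisomerase gene of dividing cells, picked after its values were seen, which read 1461 and 1649 in wild type, 1418 and 1759 in heterozygous and 1534 and 1532 in homozygous, with the genotypes overlapping.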
